A study of Homo sapiens with 6 samples.

Results

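The NR4A orphan nuclear receptors are the 3 genes NR4A1 (also called Nur77), NR4A2 (Nurr1) and NR4A3 (Nor1), here 3 of the 11048 genes listed in a count-per-million (CPM) table of MM1.S cells. They were taken by name, and the name was chosen from values measured in these same libraries, so their levels and differences are given as a description, without tests. MM1.S is an established human multiple myeloma line, a cancer of antibody-secreting plasma cells. The cells were exposed for 6 h to the DMSO vehicle, to 3 µM CCF642 or to 3 µM CCF642-34, and polyadenylated RNA was sequenced from 2 libraries per group. CCF642 and CCF642-34 are related small molecules that the study tested as inhibitors of the protein disulfide isomerase PDIA1, an enzyme that forms disulfide bonds in the endoplasmic reticulum. No source used here says that the libraries of a group came from separate cultures, so p-values measure only the spread between these samples, which may be technical.

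NR4A proteins are transcription factors with the domain plan of a nuclear receptor, but no ligand is needed for their activity, and they are controlled mostly by how much is made. Their genes are immediate early genes, transcribed without new protein synthesis after signals such as cAMP, calcium, growth factors, antigen receptor engagement or cell stress. The proteins bind as monomers to the NBRE element, as dimers to related palindromes, and NR4A1 and NR4A2 also pair with retinoid X receptors. In lymphocytes they are known as markers of antigen receptor signalling, and in blood cancers of the myeloid lineage NR4A1 and NR4A3 are known as tumour suppressors.

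Because cAMP acts on NR4A genes through the CREB proteins, the letters around their transcription starts are shown first. RefSeq windows of 300 bases on GRCh38.p14, from 250 bases before to 50 bases after a start, were given for NR4A3 and for 2 starts of NR4A1. The NR4A3 window lies on the plus strand at chr9:99821635-99821934. The NR4A1 windows lie on the plus strand at chr12:52022582-52022881 and chr12:52037465-52037764. Capitals mark each match to TGACG on either strand, the half-site of the cAMP response element (CRE). The sequences run 5′ to 3′.
NR4A3: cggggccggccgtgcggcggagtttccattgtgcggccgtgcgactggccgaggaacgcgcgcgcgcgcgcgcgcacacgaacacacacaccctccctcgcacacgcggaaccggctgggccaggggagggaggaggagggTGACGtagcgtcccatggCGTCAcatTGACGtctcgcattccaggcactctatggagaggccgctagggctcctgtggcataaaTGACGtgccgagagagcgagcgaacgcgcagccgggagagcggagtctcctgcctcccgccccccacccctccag
NR4A1 upstream start: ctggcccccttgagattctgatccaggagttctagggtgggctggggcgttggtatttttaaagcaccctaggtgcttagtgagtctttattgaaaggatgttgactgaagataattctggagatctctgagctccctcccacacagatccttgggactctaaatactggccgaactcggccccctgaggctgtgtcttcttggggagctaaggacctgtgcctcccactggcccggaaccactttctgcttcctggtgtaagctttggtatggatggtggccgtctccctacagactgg
NR4A1 downstream start: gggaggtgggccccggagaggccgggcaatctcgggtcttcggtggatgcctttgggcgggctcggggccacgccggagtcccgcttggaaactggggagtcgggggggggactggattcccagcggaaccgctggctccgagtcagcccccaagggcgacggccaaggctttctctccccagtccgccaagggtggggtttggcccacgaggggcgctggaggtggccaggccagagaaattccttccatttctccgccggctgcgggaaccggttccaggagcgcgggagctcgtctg

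The NR4A3 window held 4 half-sites, which begin 109, 91, 83 and 25 bases before the start. At least 1 half-site was found in 24.6% of 35116 such windows, and 4 or more in 110 windows (0.313%, or 0.513% of the 13061 windows of listed genes). Neither NR4A1 window held a half-site. The full CRE (TGACGTCA, which contains the half-site on both strands and was present in 1.85% of windows) was in none of the 3 windows. Nor was the NR4A element NBRE (AAAGGTCA, 1.22% of windows), the AP-1 site (TGANTCA, 7.71%), the ATF4 element CARE (TGATGNAAT, 0.991%) or the heat shock core GAANNTTC (6.77%). The CArG box of SRF (1.29%) and the MEF2 site (2.99%) were also absent from these letters. A GC box (GGGCGG, 45.0% of windows) was found once in the NR4A3 window and once in the downstream NR4A1 window. All motifs were read on both strands. A match describes the letters and shows no binding. The protein-coding NR4A1 transcripts of GENCODE 29 start at 6 places over 28616 bases, of which 4 lie outside the windows shown. Those of NR4A3 start at 2 places, of which 1 lies outside its window.

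The libraries held between 20567313 and 28459677 reads, recovered as whole reads from 100% of the deposited values within a tolerance of 0.05 read. All 10 plasma cell markers were listed, and their levels summed to 9905 to 10003 CPM in DMSO libraries, 7020 to 7054 in CCF642 libraries and 7866 to 7911 in CCF642-34 libraries. The markers went both ways: the sum followed JCHAIN (4319, 1833 and 2348 CPM with DMSO, CCF642 and CCF642-34) and SDC1 (860, 245 and 371 CPM), while IRF4 was at 670, 1137 and 1357 CPM and SLAMF7 at 675, 794 and 785 CPM. Of 5 B cell markers only BCL6 was listed, at 1.25 ± 0.286 CPM for DMSO, 3.81 ± 0.319 for CCF642 and 2.42 ± 0.0905 for CCF642-34 (SD, n = 2). Of 9 markers of T, NK and myeloid cells, CD3E and NCAM1 were listed, and the summed level of that list was 8.09 to 9.42 CPM in all 6 libraries. The part of these marker differences in the results below was not tested. These are bulk libraries, in which fewer cells of a type and less RNA per cell cannot be told apart.

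NR4A1, the member with the most reads, was at 56.5 and 57.8 CPM in the DMSO libraries (1298 and 1238 reads). It was at 854 and 832 CPM with CCF642 (17570 and 18794 reads) and at 334 and 319 CPM with CCF642-34 (9504 and 8873 reads). The groups did not overlap, and replicates lay close together beside the distances between groups. The CCF642-34 replicates still differed by more than read counting gives (95% Poisson intervals 327 to 341 and 313 to 326 CPM). For all 3 receptors nothing is read from such separation, since the share of all genes with separated groups is not given here. The mean of the DMSO libraries was 57.2 ± 0.978 CPM (SD, n = 2), that of the CCF642 libraries 843 ± 15.9 CPM and that of the CCF642-34 libraries 327 ± 10.4 CPM. The mean level with CCF642 was 14.8 times that with DMSO, and between single libraries of the groups the ratio ranged from 14.4 to 15.1. With CCF642-34 it was 5.71 times the DMSO level, with a range of 5.52 to 5.91. NR4A1 thus passed from the middle of the range of levels into its upper part. Ordered by mean CPM among the 11048 genes, NR4A1 stood at place 4230 with DMSO, at place 116 with CCF642 and at place 528 with CCF642-34.

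NR4A2, best known for its role in dopamine neurons, was scarce in untreated cells. The DMSO libraries held 11.2 and 7.85 CPM (258 and 168 reads), the CCF642 libraries 216 and 218 CPM (4445 and 4915 reads), and the CCF642-34 libraries 53.1 and 56.8 CPM (1510 and 1578 reads). The groups again did not overlap, but the DMSO replicates differed by more than read counting gives. Their 95% Poisson intervals, which cover counting error only, were 9.89 to 12.7 CPM and 6.71 to 9.13 CPM. The group means were 9.54 ± 2.39 CPM for DMSO, 217 ± 1.0 for CCF642 and 54.9 ± 2.62 for CCF642-34. The spread of the DMSO libraries carries into every ratio to them. CCF642 libraries were 22.7 times as high as DMSO libraries on average, with single ratios from 19.3 to 27.7. CCF642-34 libraries were 5.76 times as high, with single ratios from 4.73 to 7.23. Even the lowest of these ratios is far above 1. NR4A2 moved from place 8595 in the order of levels with DMSO to place 934 with CCF642 and place 4258 with CCF642-34.

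NR4A3, the member named with NR4A1 as a suppressor of myeloid leukaemia, had the fewest reads with DMSO. Its levels were 8.48 and 6.96 CPM with DMSO (195 and 149 reads), 268 and 295 CPM with CCF642 (5509 and 6668 reads), and 62.0 and 60.8 CPM with CCF642-34 (1764 and 1689 reads). All 4 libraries of treated cells lay far above both DMSO libraries, and both CCF642 libraries lay above both CCF642-34 libraries. The CCF642 replicates differed by more than read counting gives (95% Poisson intervals 261 to 275 and 288 to 302 CPM). The means were 7.72 ± 1.08, 281 ± 19.3 and 61.4 ± 0.864 CPM with DMSO, CCF642 and CCF642-34. The CCF642 mean was 36.5 times the DMSO mean, with single ratios from 31.6 to 42.4, and the CCF642-34 mean was 7.95 times the DMSO mean, with single ratios from 7.16 to 8.90. In the order of levels NR4A3 moved from place 8909 to place 661 with CCF642 and to place 3937 with CCF642-34.

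**Figure D1:**
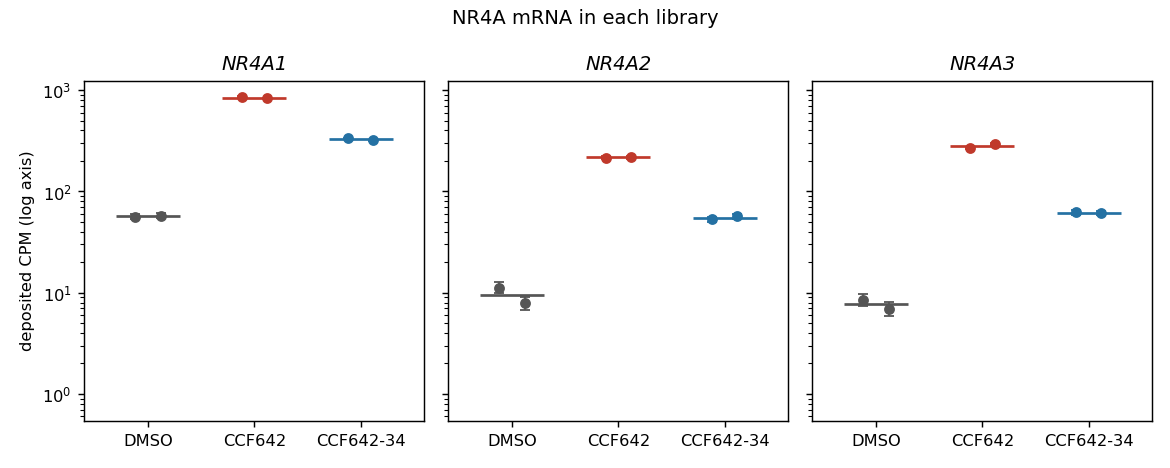
Level of each NR4A gene in deposited CPM on a log axis (y) by treatment (x). Points are libraries with 95% Poisson intervals of their reads, most of them smaller than the point, and horizontal lines are group means (n = 2); in each panel the order is DMSO, then CCF642-34, then CCF642, with no overlap.

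Among all genes the 3 receptors stood near the top of both lists of increases. Fold changes across genes were taken on log2(CPM + 1) after TMM scaling, which aligns libraries by the trimmed mean of their log ratios, and this scale understates changes of genes with low levels. With CCF642, NR4A3 had a log2 fold change of 5.15 over DMSO and was the second of 11048 genes, after ATF3 at 6.01. NR4A2 followed in the third place at 4.52, and NR4A1 in place 9 at 3.99. The threshold of 2-fold higher was passed by 4.50% of all genes in this comparison and that of 2-fold lower by 1.99%, and since the receptors were chosen with this contrast known, nothing is read from their count. With CCF642-34 the log2 fold changes over DMSO were 2.92 for NR4A3 (place 12), 2.58 for NR4A1 (place 20) and 2.51 for NR4A2 (place 23), where 2.59% of all genes were at least 2-fold higher and 1.29% at least 2-fold lower. Over the 16 fits run (the one described and 15 alternatives), the place of NR4A3 ranged from 2 to 5 for CCF642 and from 12 to 21 for CCF642-34, that of NR4A2 from 3 to 9 and from 15 to 34, and that of NR4A1 from 6 to 15 and from 16 to 35. NR4A2 fell to place 7 for CCF642 without DMSO replicate 2, and rose to place 15 for CCF642-34 without DMSO replicate 1.

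**Figure D2:**
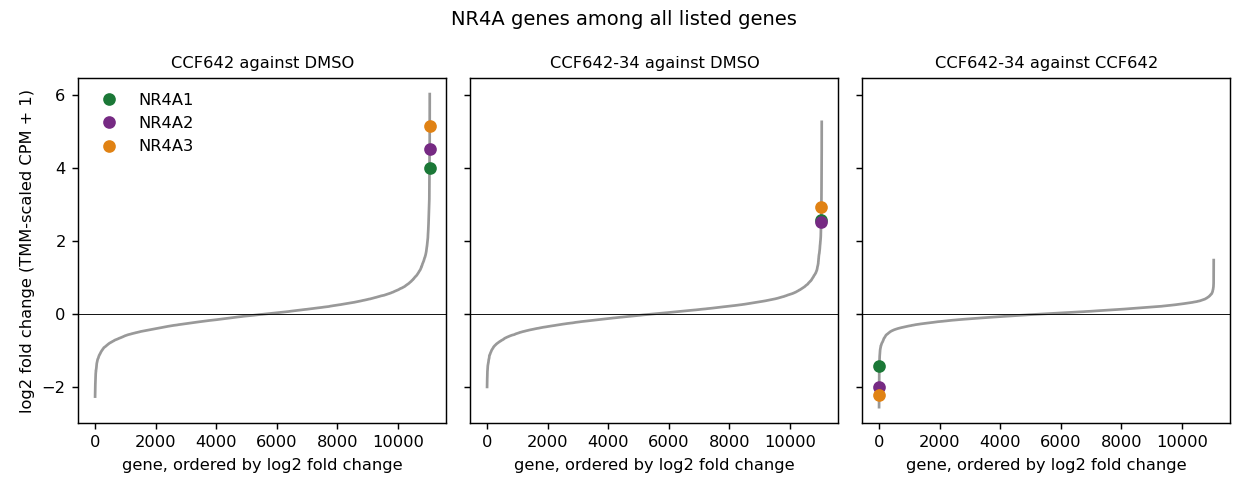
All 11048 listed genes in order of their log2 fold change (y, on log2 of TMM-scaled CPM + 1) in each of 3 comparisons, as a grey line. Coloured points mark NR4A1, NR4A2 and NR4A3, which lie at the upper end in both comparisons with DMSO and at the lower end for CCF642-34 against CCF642.

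CCF642 and CCF642-34 were compared directly at the same dose and time. NR4A3 was 4.59 times as high with CCF642 as with CCF642-34 (single ratios 4.32 to 4.86), NR4A2 3.95 times (3.81 to 4.10) and NR4A1 2.58 times (2.49 to 2.68). The corresponding log2 fold changes of CCF642-34 against CCF642 were −2.22, −2.01 and −1.41, which were the second, the third and the tenth from the bottom among all genes. Over the 16 fits these places from the bottom ranged from 1 to 7, from 2 to 8 and from 6 to 26. OASL, an interferon-induced gene, was the one with a larger drop than NR4A3, at −2.54. In this comparison 0.299% of all genes were at least 2-fold lower with CCF642-34 and 0.00905% (1 gene) at least 2-fold higher. Put against DMSO, CCF642-34 gave 34.3% of the CPM increase of NR4A1 that CCF642 gave, 21.9% of that of NR4A2 and 19.6% of that of NR4A3. On the log2 scale the shares were 64.7%, 55.5% and 56.8%. The share was highest for NR4A1 on both scales and the order of the other two depended on the scale, and differences between members were not tested. The comparisons with DMSO share the same 2 DMSO libraries.

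The mix of the family also differed between treatments. Levels of different genes are compared per kb of merged exon, with GENCODE 29 lengths of 4053 bases for NR4A1, 3781 for NR4A2 and 6314 for NR4A3. Per kb, NR4A1 was at 14.1 ± 0.241, 208 ± 3.92 and 80.6 ± 2.57 CPM with DMSO, CCF642 and CCF642-34. NR4A2 was at 2.52 ± 0.631, 57.3 ± 0.265 and 14.5 ± 0.694 CPM per kb, and NR4A3 at 1.22 ± 0.170, 44.6 ± 3.05 and 9.72 ± 0.137 CPM per kb (SD, n = 2). The order NR4A1, NR4A2, NR4A3 held in all 6 libraries on this scale, although by CPM alone NR4A3 was above NR4A2 in every treated library. With DMSO the levels of NR4A2 and NR4A3 lay closest to their replicate spread. The NR4A2 to NR4A3 ratio per kb was 2.05 ± 0.231 with DMSO, 1.29 ± 0.0824 with CCF642 and 1.49 ± 0.0924 with CCF642-34. With the longest principal transcript as the length, an alternative chosen after the values had been seen, these ratios were 2.01, 1.27 and 1.47.

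NR4A1 made up 76.4% and 81.8% of the summed CPM per kb in the DMSO libraries, 67.9% and 66.3% with CCF642, and 77.6% and 76.2% with CCF642-34. The CCF642 libraries were the lowest in this share, while the CCF642-34 and DMSO libraries overlapped. NR4A3 made up 7.36% and 6.32% with DMSO, 13.7% and 15.1% with CCF642, and 9.24% and 9.31% with CCF642-34, with no overlap between groups. NR4A2 made up 16.3% and 11.9%, 18.4% and 18.6%, and 13.2% and 14.5% in the same order, and here DMSO and CCF642-34 overlapped. The summed CPM of the family, without correction for length, was 76.2 and 72.7 with DMSO, 1338 and 1345 with CCF642, and 449 and 437 with CCF642-34.

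**Figure D3:**
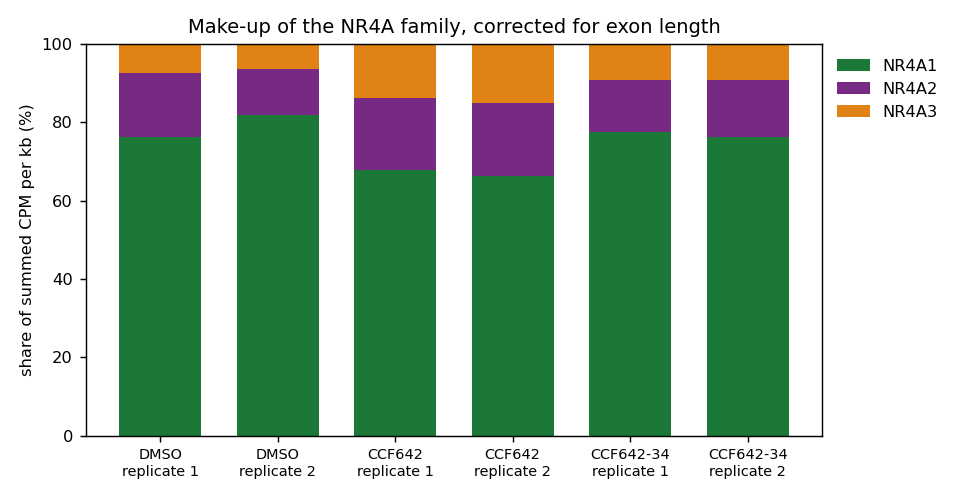
Share of each NR4A gene in the summed CPM per kb of merged exon (y, in percent) in each of the 6 libraries (x). NR4A1 takes the largest share in every bar, and the NR4A3 share is highest in the CCF642 libraries (13.7% and 15.1%).

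The members share little sequence that could confuse read assignment. The longest identical run between their transcripts was 20 bases for NR4A1 and NR4A2, 17 for NR4A1 and NR4A3, and 20 for NR4A2 and NR4A3. In RefSeq, 3 long noncoding RNA genes (LOC124902934, LOC107984510 and NR4A1AS) overlap the NR4A1 locus, and 0 genes overlap NR4A2 or NR4A3. None of the 3 was listed, and whether counting used the strand is not given in the sources used here, so their reads could not be told apart from those of NR4A1.

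The genes with profiles most like those of the receptors over the 6 libraries were found by the root mean square difference of log2 values, each gene centred on its own mean. The nearest to NR4A1 was SAT1, an enzyme of polyamine breakdown, at 0.248, followed by NR4A2 (0.306), the AP-1 subunits JUN and FOSL2 (both 0.390) and the small GTPase RND3 (0.422). The nearest to NR4A2 was NR4A3 (0.274) and then NR4A1 (0.306), and NR4A2 was the nearest to NR4A3. For NR4A3 the next were NR4A1 (0.494), SAT1 (0.683), the phosphatase gene DUSP8 (0.743) and CHAC1, a glutathione-degrading enzyme (0.811). SAT1 went from 57.7 ± 0.365 CPM with DMSO to 602 ± 31.3 with CCF642 and 226 ± 4.14 with CCF642-34. JUN went from 146 ± 2.46 to 1104 ± 2.09 and 554 ± 20.8 CPM. Both had the order of groups seen in the receptors. RND3, DUSP8 and CHAC1 had that order too but were closer between the compounds. Their log2 fold changes of CCF642-34 against CCF642 were −0.48, −0.42 and −0.34.

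**Figure D4:**
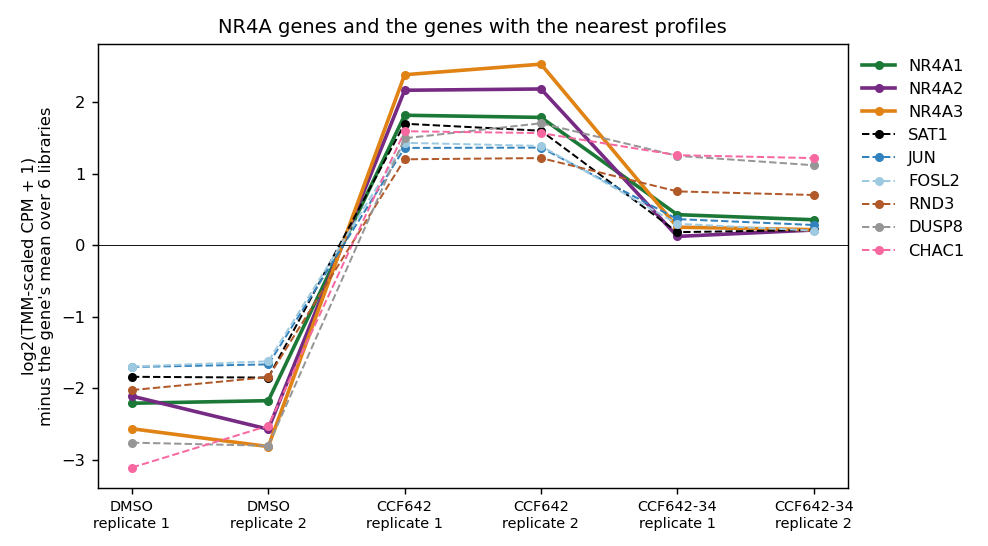
Log2(TMM-scaled CPM + 1) minus the mean of the gene over 6 libraries (y) by library (x) for the NR4A genes (solid lines) and the genes with the nearest profiles (dashed lines). The NR4A genes, SAT1, JUN and FOSL2 fall to a similar height with CCF642-34, and RND3, DUSP8 and CHAC1 stay higher there.

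The next question was which genes that act with the receptors moved in the same libraries. For these lists, genes were called at a limma Benjamini-Hochberg adjusted p under 0.05 over all 11048 genes. The background is high, since this rule called 31.8% of all genes up and 31.3% down for CCF642 against DMSO, and 29.7% up and 27.9% down for CCF642-34 against DMSO. For CCF642-34 against CCF642 it called 15.9% up and 17.4% down. With scaling to library size alone the calls against DMSO shifted downwards, to 2528 genes up and 4738 down for CCF642 in place of 3517 and 3457, and to 2497 up and 3972 down for CCF642-34 in place of 3285 and 3077. In the direct comparison they shifted to 2406 up and 1488 down in place of 1760 and 1925. The lists were written with earlier results of these data known.

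Most of the immediate early genes, the class to which the receptors belong, moved with them. Of 46 such genes other than the receptors, 37 were listed. With CCF642, 31 of the 37 rose and 5 fell, 26 rose at least 2-fold and 1 fell at least 2-fold, and the median log2 fold change was 1.53 against −0.0066 for all genes. With CCF642-34, 28 rose and 6 fell, 11 rose at least 2-fold and 1 fell at least 2-fold, with a median of 0.77 against 0.0067. Directly compared, 32 of the 37 were lower with CCF642-34 than with CCF642 and 2 were higher, and 5 were at least 2-fold lower, with a median of −0.68 against 0.0093. The shares of genes that rose (83.8% and 75.7%) were above the 31.8% and 29.7% of all genes. The shares that fell (13.5% and 16.2%) were below the 31.3% and 27.9% of all genes. At least 2-fold rises were 70.3% and 29.7% of the list, against 4.50% and 2.59% of all genes. In the direct comparison 86.5% were lower and 5.41% higher with CCF642-34, against 17.4% and 15.9% of all genes. Of all genes 0.299% were at least 2-fold lower there.

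ATF3, a stress-induced repressor of the ATF family, was the top gene of the list, at 22.9 ± 0.105 CPM with DMSO, 1406 ± 36.8 with CCF642 and 856 ± 4.0 with CCF642-34. FOSL2 rose from 33.7 ± 1.22 to 264 ± 6.75 CPM with CCF642 (log2 fold change 3.07, SE 0.054, limma adjusted p = 2.69e-41), and JUN rose by 3.05 on the log2 scale. With CCF642-34, FOS, the founding AP-1 subunit, rose by 2.09 and KLF2, a zinc finger factor of resting lymphocytes, by 2.08 on the log2 scale. JUNB differed most between the compounds, at 67.0 ± 7.79 CPM with CCF642 and 25.3 ± 1.01 with CCF642-34 (log2 fold change −1.41, SE 0.088, limma adjusted p = 3.40e-18). FOSL2 was lower with CCF642-34 by 1.16 and NFKBIA, the inhibitor of NF-κB, by 1.13 on the log2 scale. These drops are all smaller than those of NR4A2 and NR4A3, and JUNB differed by as much as NR4A1 (−1.41 for each). MYC, the growth-promoting factor on which myeloma cells often depend, went the other way, from 459 ± 9.08 CPM with DMSO to 101.2 ± 2.46 with CCF642 and 181 ± 0.285 with CCF642-34.

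**Figure D5:**
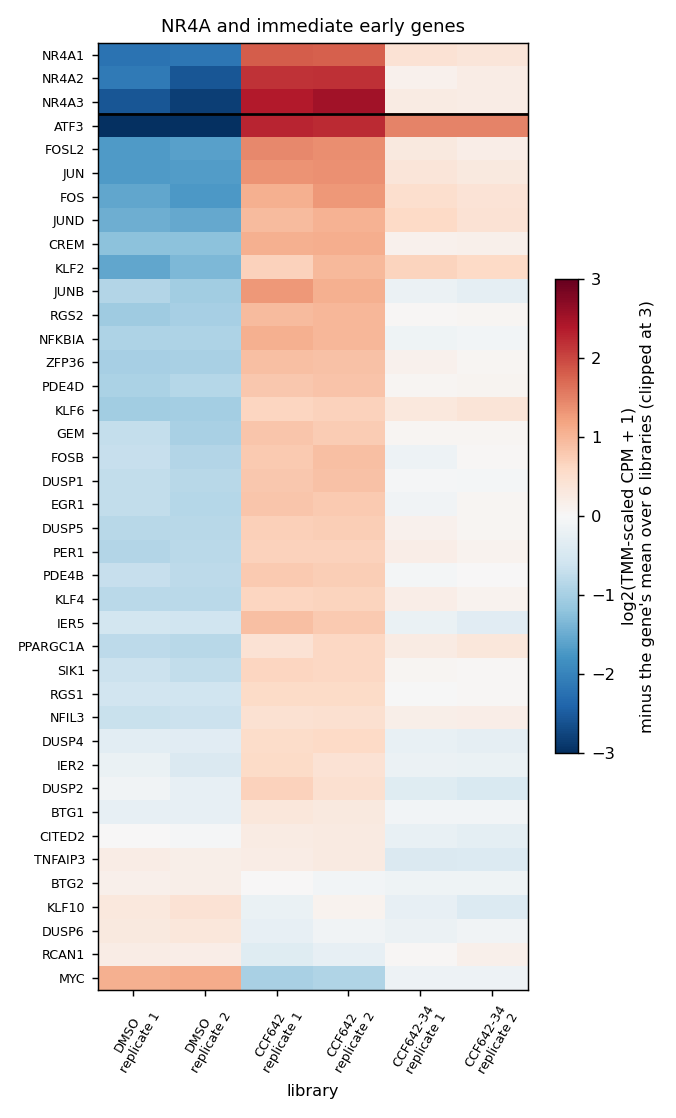
Log2(TMM-scaled CPM + 1) minus the mean of the gene over 6 libraries (colour, clipped at 3) for the NR4A genes (above the black line) and the 37 listed immediate early genes (rows, ordered by their change with CCF642) in each library (columns). Most rows are blue with DMSO, red with CCF642 and near white with CCF642-34, and MYC in the lowest row is reversed.

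Genes upstream of the receptors (CREB proteins and their coactivators, protein kinase A, salt-inducible kinases, MEF2 factors with their repressors, calcineurin and NFAT, SRF and MAP kinases) split in both directions against DMSO. Of 45 listed genes of 48, 17 rose and 10 fell with CCF642, 3 of them at least 2-fold upwards, with a median of 0.063. The counts were 13 and 16 with CCF642-34, with a median of −0.064, and in the direct comparison 2 were called up and 16 down for CCF642-34. With scaling to library size alone the split was 15 and 16 with CCF642 and 11 and 21 with CCF642-34. With CCF642, 37.8% of the list rose and 22.2% fell, against 31.8% and 31.3% of all genes. At least 2-fold rises with CCF642 were 6.67% of the list and 4.50% of all genes. With CCF642-34, 28.9% rose and 35.6% fell, against 29.7% and 27.9% of all genes. In the direct comparison 35.6% of the list was lower with CCF642-34 and 4.44% higher, against 17.4% and 15.9% of all genes.

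Single members of that list had the order of groups seen in the receptors. CREM, whose short isoforms repress cAMP-responsive genes and which is also in the immediate early list, was at 19.5 ± 0.00028 CPM with DMSO, 92.4 ± 0.678 with CCF642 and 49.1 ± 0.842 with CCF642-34. Its log2 fold changes were 2.32 with CCF642, 1.37 with CCF642-34 and −0.94 between them, each with a limma adjusted p of at most 2.43e-15. SIK1, a kinase that holds the CREB coactivators in the cytoplasm, is also in the immediate early list. It rose by 1.32 and 0.72 on the log2 scale and was lower by 0.60 with CCF642-34 than with CCF642. CREM and SIK1 are thus counted in both lists. Of the CREB coactivators themselves, CRTC2 rose from 115 ± 3.46 to 152 ± 0.683 CPM with CCF642 and to 131 ± 1.51 with CCF642-34. CRTC3 did not pass the test in any comparison (log2 fold changes −0.057, −0.094 and −0.037). CRTC1 was called lower with CCF642-34 than with DMSO (−0.37), but not without DMSO replicate 2 (−0.30, limma adjusted p = 0.0789) or without CCF642-34 replicate 2 (−0.26, limma adjusted p = 0.112). Its drop against CCF642 (−0.39) was also not called without CCF642-34 replicate 2 (−0.28, limma adjusted p = 0.135).

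MEF2D, a calcium-controlled activator of NR4A1 in lymphocytes, rose from 289 ± 10.4 to 543 ± 5.03 CPM with CCF642, a log2 fold change of 1.04. MEF2D also rose with CCF642-34, by 0.69 on the log2 scale. MEF2A rose by 0.72 with CCF642 and by 0.71 with CCF642-34, and did not pass the test between them. MEF2C was lower with CCF642-34 than with DMSO (log2 fold change −0.16). SRF, which activates many early genes through CArG boxes, fell by 0.95 with CCF642 and by 1.07 with CCF642-34 on the log2 scale. EP300, a histone acetyltransferase, was lower with CCF642-34 than with CCF642 by 0.45.

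Against DMSO, other nuclear receptors showed no such common movement. Of 45 in the list, 29 were listed, of which 7 rose and 9 fell with CCF642 and 5 rose and 10 fell with CCF642-34. The medians were −0.13 and −0.059, and 1 was higher and 7 were lower with CCF642-34 than with CCF642. The shares that rose (24.1% and 17.2%) were below the 31.8% and 29.7% of all genes. Those that fell were 31.0% and 34.5%, against 31.3% and 27.9% of all genes. In the direct comparison 24.1% were lower with CCF642-34 and 3.45% higher, against 17.4% and 15.9% of all genes. With scaling to library size alone the split with CCF642 was 6 and 12. With CCF642, 3 rose at least 2-fold (10.3% of the list, against 4.50% of all genes) and 0 fell as much. The 3 were RORA (log2 fold change 1.52), the glucocorticoid receptor NR3C1 (1.17) and the clock repressor NR1D2 (1.16). NR3C1, the target of the dexamethasone given in myeloma, rose from 234 ± 7.71 to 481 ± 26.8 CPM with CCF642 and was at 339 ± 10.9 CPM with CCF642-34. VDR, the vitamin D receptor, fell by 0.84 on the log2 scale with CCF642.

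The dimer partners of NR4A1 and NR4A2 did not pass the test in any comparison. RXRA was at 26.1 ± 0.682 CPM with DMSO, 23.7 ± 0.717 with CCF642 and 25.8 ± 4.70 with CCF642-34. RXRB was near the lowest levels listed, at 1.58 ± 0.207, 1.62 ± 0.0423 and 1.03 ± 0.0834 CPM. RXRG was not listed.

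Of 23 coregulators of nuclear receptors 21 were listed, and calls among them went in both directions. With CCF642, 8 rose and 7 fell, and with CCF642-34, 5 rose and 8 fell. These were 38.1% and 33.3% of the list with CCF642, near the 31.8% and 31.3% of all genes. With CCF642-34 they were 23.8% and 38.1%, against 29.7% and 27.9% of all genes. With scaling to library size alone the splits were 5 and 11, and 4 and 9. Directly compared, 2 were higher and 5 lower with CCF642-34 (9.52% and 23.8% of the list, against 15.9% and 17.4% of all genes). With scaling to library size alone 3 were higher and 2 lower in that comparison. Only 4 such calls were made without CCF642-34 replicate 1, and likewise 4 without CCF642-34 replicate 2. NCOA7, a coactivator, rose by 0.72 with CCF642 and by 0.63 with CCF642-34 on the log2 scale. PPARGC1B, a coactivator of mitochondrial genes, fell by 1.05 and 0.86, and KDM1A, a histone demethylase of corepressor complexes, by 0.57 and 0.49.

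The last list held genes that have been tied to NR4A receptors in T cells, muscle, neurons or tumours. Of 37 such genes 24 were listed, of which 9 rose and 10 fell with CCF642 and 9 rose and 12 fell with CCF642-34. MYC, which is also in the immediate early list, is among those that fell with each compound. The median was −0.17 with CCF642 and −0.31 with CCF642-34, and in the direct comparison 5 were higher and 7 lower with CCF642-34. Those 5 and 7 were 20.8% and 29.2% of the list, against 15.9% and 17.4% of all genes. The share that rose was 37.5% in both comparisons with DMSO (31.8% and 29.7% of all genes), and the share that fell was 41.7% with CCF642 (31.3% of all genes) and 50% with CCF642-34 (27.9% of all genes). With each compound 4 of the 24 rose at least 2-fold (16.7%, against 4.50% and 2.59% of all genes). At least 2-fold lower were 3 with CCF642 and 2 with CCF642-34, where 1.99% and 1.29% of all genes were. SESN2, a stress-induced regulator of mTORC1, rose from 24.1 ± 0.804 CPM to 497 ± 4.66 with CCF642 and 438 ± 4.62 with CCF642-34, and so differed between the compounds far less than the receptors did. The chemokine gene CCL3 rose by 2.14 and 1.20 on the log2 scale and was lower by 0.94 with CCF642-34 than with CCF642 (SE 0.035, limma adjusted p = 3.06e-26). BCL2L11, the cell death protein BIM, was at 819 ± 10.8 CPM with CCF642 and 539 ± 1.80 with CCF642-34. BIRC5, the mitotic and survival protein survivin, fell by 1.01 with CCF642 on the log2 scale. PDCD1, the checkpoint receptor PD-1, was at 22.9 ± 2.34 CPM with CCF642 and 14.8 ± 0.381 with CCF642-34, a log2 fold change of −0.63. IRF4, a survival factor of myeloma cells, was higher with CCF642-34 than with CCF642 by 0.21.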

How the data were processed

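RNA sequencing of MM1.S cells was analysed in 3 groups of 2 libraries, grouped by GEO's labels, after oligo(dT) enrichment of mRNA and random-hexamer priming. The authors deposited CPM values, reads per gene scaled to the total of the library, for 11048 gene symbols. The unit was read from the values, which were whole multiples of 1 read. The highest value of each gene is at least 1.50 CPM, so scarcer genes are absent from the table. The submitters' processing notes name STAR, edgeR 3.24.3, limma 3.38.3 and hg19. The counting tool and annotation are not given in the sources used here. A table of the whole series was not used.

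CPM values were scaled by TMM factors (edgeR 4.0.16), increased by a pseudocount of 1 and log2 transformed. The 3 groups were fitted together with limma 3.58.1 in R 4.3.3 with a mean-variance trend (3 residual and 42.9 prior degrees of freedom). Tests were two-sided with Benjamini-Hochberg adjustment over all listed genes, and no filter was added. The members, the gene lists and the tests were chosen with earlier results of these data known. The NR4A genes were not tested. Named genes were, per list and comparison, up to 3 largest called increases and decreases, besides the 5 nearest profiles of each NR4A gene, the retinoid X receptors and the CREB coactivators, and not all are named. The cell type markers, OASL and MEF2C were named besides these, and MEF2C was picked outside this rule with its values known. Alternatives were other scalings, pseudocounts, a minimum mean CPM of 5, edgeR's quasi-likelihood test and DESeq2 1.42.0 on the recovered reads, only the groups compared, a replicate block, and fits without each library. The fit was tested on simulated data. Gene lengths came from GENCODE 29 and promoter windows from RefSeq on GRCh38.p14, by symbol; 2 of the 3 members had a window. Poisson intervals reflect read counting alone, because PCR copies of a molecule are not marked. Some items are not reported here.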

Additional observations from a re-analysis of the deposited data

How the results depend on the processing

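Under other scalings, pseudocounts, filters, tests and sets of libraries, 395 values of the NR4A genes and gene counts stayed within the replicate SD (or within 1.5 times, for counts), and 10 moved further. For NR4A fold changes without single libraries this could hardly come out otherwise. Leaving out either library moves a group mean by less than the SD of its libraries. The minimum mean CPM only drops other genes and leaves NR4A fold changes as they were. Nothing is read from the values that stayed in these fits. No fold change of an NR4A gene turned in direction. With scaling to library size alone the balance of calls turned in lists: coregulators went from 2 up and 5 down to 3 and 2 in the direct comparison and from 8 and 7 to 5 and 11 with CCF642, and upstream regulators from 17 and 10 to 15 and 16 with CCF642. With scaling to library size alone the median of all genes shifted to −0.13 with CCF642, −0.078 with CCF642-34 and 0.051 between them, and NR4A1 had log2 fold changes of 3.86 with CCF642 and 2.49 with CCF642-34 in place of 3.99 and 2.58. With a pseudocount of 4, CCF642 gave 3.92 for NR4A1, 4.15 for NR4A2 and 4.71 for NR4A3, and CCF642-34 gave 2.52 for NR4A1 and 2.55 for NR4A3; a larger pseudocount lowers fold changes by construction. DESeq2's Wald test gave 4.02 for NR4A1 with CCF642. Without single libraries, between 4 and 8 coregulators were called in the direct comparison, and fits then assume that a lone library varies like the others. For named genes, 18 values were no longer called but kept their direction (CRTC1, THRA, CTBP1, NRIP1, PRKACA and TRIM28); the cause was not tested.

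Differences between replicate 1 and replicate 2 correlated by −0.035, −0.059 and 0.094 between groups over 9841 genes. These values cannot show whether libraries with the same replicate number were prepared together. A replicate block gave 7014 called genes with CCF642 in place of 6974. The fold changes of the NR4A genes stay at 3.99, 4.52 and 5.15 by construction, since every group holds both replicate numbers. They are counted among the values that stayed. With 2 libraries per group, no outlier check was possible. The lowest NR4A count was 149 reads, and relative counting error is largest for NR4A2 and NR4A3 with DMSO. There the NR4A2 replicates differed by more than counting gives. So did those of NR4A1 with CCF642-34 and of NR4A3 with CCF642. Such excess was general. Over 9841 genes, squared differences between replicates were on average 2.30 (DMSO), 4.70 (CCF642) and 4.15 (CCF642-34) times those of counting.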
